A study of Mus musculus with 15 samples.

Results

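The genes of epithelial cell junctions and of apical-basal polarity, leaving the claudins aside, were followed in mouse biliary epithelial cells after induced deletion of Klf5. Their 31 symbols were chosen by name and not by a measured value, though with earlier results of these data known. They were taken from 24421 gene symbols in each deposited table, and all 31 were found there. They comprise 8 tight junction genes, 9 polarity genes, 5 adherens junction genes and 9 desmosome genes. The cells are described as an established line from adult biliary ducts of the C57BL/6 strain, with the genotype ITR-CreERT2;Klf5flox/flox in every sample. 4-OH tamoxifen activates the CreERT2 recombinase, which removes the floxed parts of Klf5, the gene of a zinc finger transcription factor, and ethanol (EtOH) served as the control. There were 3 ethanol and 4 tamoxifen libraries at 12 h, and 4 ethanol and 4 tamoxifen libraries at 24 h. No group received tamoxifen without the floxed alleles or without the recombinase, so loss of Klf5, Cre activity and tamoxifen itself cannot be told apart. The labels name 1 line and give no culture of origin for a replicate, so p-values reflect the spread among these libraries alone, which may be technical. Whether the cells grew in culture or in an animal is unclear, since the title of the series and its design text differ on it.

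Junctional complexes hold the cells of a bile duct together and separate bile from tissue. At the tight junction, transmembrane proteins such as occludin and JAM-A are tied to the actin skeleton by scaffolds such as ZO-1 and cingulin. At the adherens junction below it, E-cadherin is linked to actin through the catenins, and afadin connects a second set of adhesion molecules, the nectins. Desmosomes join the keratin filaments of neighbouring cells through desmosomal cadherins, plakoglobin, plakophilins and desmoplakin, and the Par, Crumbs and Scribble complexes set the border between the apical and the lateral membrane.

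The deposited tables hold, for each gene and time, the mean normalised count over the libraries and the log2 fold of tamoxifen over ethanol with its standard error (SE), but no value per library. The levels in ethanol and in tamoxifen given here are therefore those implied by the mean, the fold and the number of libraries in each group. Genes with an adjusted p below 0.05 in the Wald test of the authors were called, and intervals are 95% intervals of 1.96 SE on each side. Normalised counts summed to 13891352 per library on average at 12 h and 11844187 at 24 h. Klf5 itself had implied levels of 652 normalised counts in ethanol and 266 in tamoxifen at 12 h, and of 938 and 285 at 24 h. These values cover the whole gene and can include exons that were not deleted. The keratin genes Krt8, Krt18 and Krt19 were among the highest in the libraries, with means of 37434, 48237 and 23752 normalised counts at 12 h. The epithelial adhesion gene Epcam had 15.7. Markers of other cell types were near 0: the means of 7 endothelial markers were all under 10, as were 8 of 9 fibroblast and stellate markers and 6 of 7 immune markers at both times. None of these markers was called at either time. The 12 markers listed as biliary include Krt8, Krt18 and Krt19. Of these 12 markers 1, Krt7, was called lower and 0 higher at 12 h in the authors' deposited table. At 24 h 2, Krt19 and Tspan8, were called lower and 1 higher. The summed level of the 12 was 151267 normalised counts in ethanol and 144292 in tamoxifen at 12 h. At 24 h it was 58926 normalised counts in ethanol and 62351 in tamoxifen. The 10 hepatocyte markers summed to 17789 and 24253 at 12 h and to 29108 and 35531 at 24 h. Apob, the apolipoprotein B gene, was the highest, with means of 11906 at 12 h and 27450 at 24 h. It was the 1 of them called, and it was called higher, at 24 h. Of the 10 hepatocyte markers 3 had a mean of at least 1000 at 12 h and 2 at 24 h, while 5 and 6 were under 10. The albumin gene Alb had a mean of 1.48 at 24 h and Cyp2e1 was listed at 0. The part of these markers in the results was not tested. In bulk RNA, fewer cells of a type and less RNA per cell cannot be told apart.

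At 24 h 6 of the 31 genes fell and none rose. They were the tight junction genes Tjp1 and F11r, the adherens junction genes Ctnna1 and Mllt4, the desmosomal cadherin gene Dsg2 and the Scribble complex gene Dlg1, and their levels in tamoxifen were between 82.5% and 92.4% of those in ethanol. The remaining members with an adjusted p, 23 of 29, were not called. Of all genes with an adjusted p, 6.52% were called lower and 5.9% higher at 24 h in the authors' deposited table. All 6 falls were among the 17 members whose mean was 1000 normalised counts or more, where standard errors are small. Of all genes above that mean, 12.5% were called lower and 7.11% higher at 24 h in the authors' deposited table, against 0.811% and 0.243% at 12 h, when none of the 16 members above it was called. At an unadjusted p under 0.05, 7 members were lower and 4 were higher at 24 h, and 18% of all genes with a p passed that limit in the authors' deposited table. The median log2 fold was -0.02 over the 30 members with a fold and 0.01 over all genes with one.

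**Figure D1:**
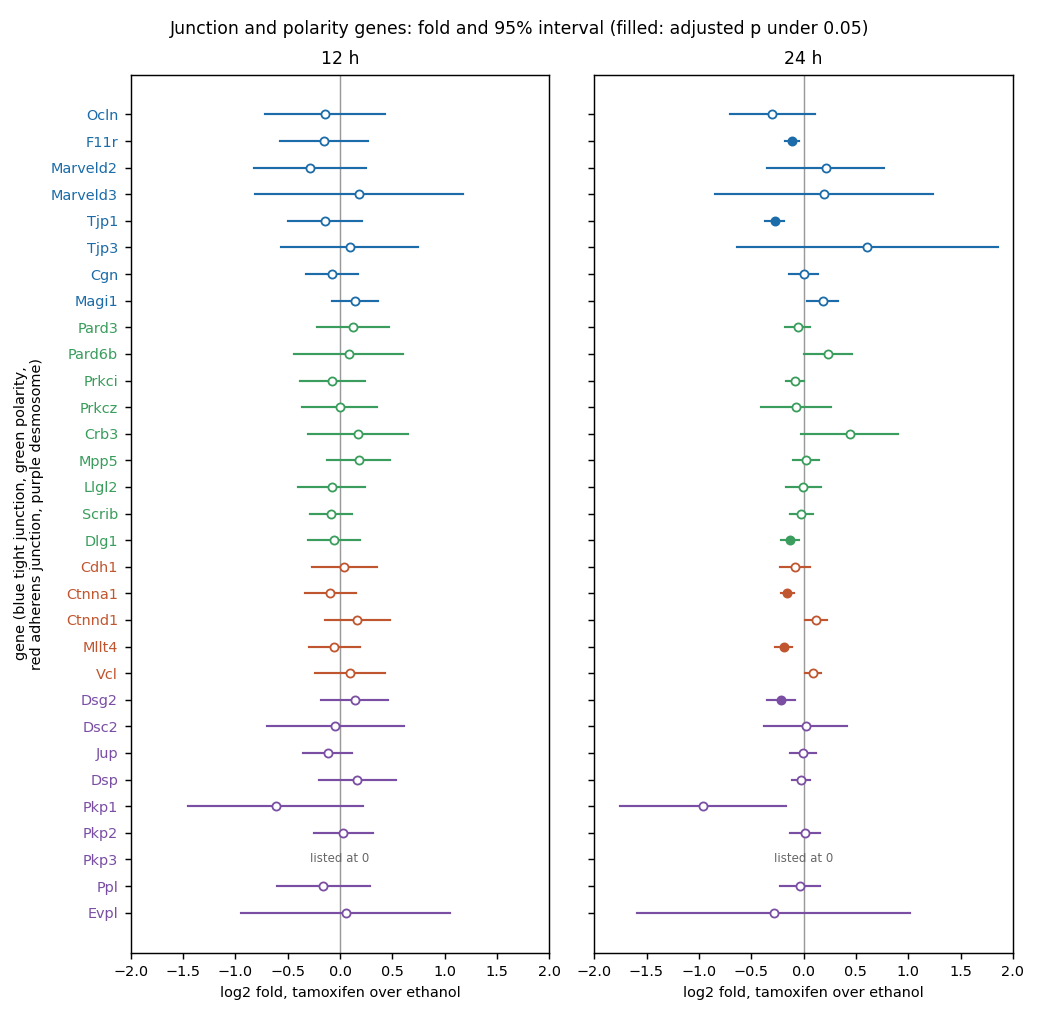
Log2 fold of tamoxifen over ethanol for each junction and polarity gene at 12 h (left) and 24 h (right), with points for the fold and bars for the 95% interval. No point is filled at 12 h, and the 6 filled points at 24 h, all below 0, are Tjp1, F11r, Dlg1, Ctnna1, Mllt4 and Dsg2.

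To show the regions next to the start sites of the genes that fell, the 250 bases upstream of the most 5′ start in the RefSeq table (GRCm38.p6) are given for 4 of the called genes. They are written 5′ to 3′ on the strand of the gene, with capitals where the 8-letter GC box and CACCC-type motif CCNCNCCC, the kind of site bound by Krüppel-like and Sp factors, matched on either strand; overlapping matches run together. Tjp1 (chr7:65371245-65371494, minus strand) had 5 matches, Mllt4 (chr17:13760291-13760540, plus strand) 2, F11r (chr1:171437311-171437560, plus strand) 1 and Dlg1 (chr16:31663193-31663442, plus strand) 0. The other 3 starts of Dlg1 had 3, 1 and 0. For Tjp1 the RefSeq table holds 1 start. It lies inside the GENCODE span of the gene, whose 5′ end is at 65527781, so the window shown is not at that end.
Tjp1: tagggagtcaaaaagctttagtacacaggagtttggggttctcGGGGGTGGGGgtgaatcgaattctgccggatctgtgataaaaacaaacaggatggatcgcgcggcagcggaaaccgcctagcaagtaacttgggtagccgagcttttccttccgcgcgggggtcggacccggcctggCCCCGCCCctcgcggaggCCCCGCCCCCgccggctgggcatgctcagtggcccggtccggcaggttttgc
Mllt4: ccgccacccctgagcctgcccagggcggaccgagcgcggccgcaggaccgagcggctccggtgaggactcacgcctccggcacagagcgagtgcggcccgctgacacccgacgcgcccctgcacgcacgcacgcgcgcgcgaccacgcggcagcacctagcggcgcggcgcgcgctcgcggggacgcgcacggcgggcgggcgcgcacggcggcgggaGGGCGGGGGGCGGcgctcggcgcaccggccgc
F11r: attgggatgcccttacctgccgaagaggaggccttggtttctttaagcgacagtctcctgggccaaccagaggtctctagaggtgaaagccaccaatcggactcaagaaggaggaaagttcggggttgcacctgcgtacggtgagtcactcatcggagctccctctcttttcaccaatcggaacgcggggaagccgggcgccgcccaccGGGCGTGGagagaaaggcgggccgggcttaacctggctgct
Dlg1: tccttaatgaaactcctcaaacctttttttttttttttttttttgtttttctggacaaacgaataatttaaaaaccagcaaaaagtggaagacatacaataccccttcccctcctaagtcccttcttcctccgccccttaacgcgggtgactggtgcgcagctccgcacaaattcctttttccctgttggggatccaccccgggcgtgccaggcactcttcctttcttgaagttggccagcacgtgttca
Of all 32851 windows of this length from RefSeq, 45.9% held at least 1 match, with a median GC content of 52.4%. Of the 31 windows available, which belong to 19 of the members, 23 held one, and their median GC content was 62%. The 4 windows shown have GC contents of 63.2%, 82.8%, 60% and 46% in the order given. A match describes the letters of the window and is no evidence of binding.

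Among the 8 tight junction genes 2 fell and none rose at 24 h, and the median log2 fold was 0.09. Tjp1 encodes ZO-1, the scaffold that joins claudins, occludin and JAM-A to actin, and lies on chromosome 7 from 65296165 to 65527781 (GRCm38, minus strand). Its implied level was 5890 normalised counts in ethanol and 4861 in tamoxifen at 24 h. Its log2 fold was -0.28 (SE 0.05, adjusted p = 6.82e-08 in the Wald test) in the authors' deposited table, which puts the tamoxifen level at 82.5% of ethanol with an interval of 77.6% to 87.8%. F11r encodes JAM-A, an immunoglobulin-like adhesion molecule that binds ZO-1 and afadin inside the cell (chromosome 1 from 171437535 to 171464603, plus strand). Its levels were 6084 in ethanol and 5624 in tamoxifen at 24 h. The fold of F11r was -0.11 (SE 0.03, adjusted p = 0.0127 in the Wald test) in the authors' deposited table, or 92.4% of ethanol with an interval of 88.2% to 96.9%. Whether the falls of F11r and Tjp1 differed in size was not tested.

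Other tight junction genes were not called at 24 h. Cgn (cingulin, a cytoplasmic plaque protein that binds ZO-1 and myosin) had 1087 normalised counts in ethanol and 1088 in tamoxifen, with an interval of 90.9% to 110% of ethanol. Magi1, a scaffold with several PDZ domains, had a log2 fold of 0.18 (SE 0.07, adjusted p = 0.0887 in the Wald test) in the authors' deposited table. For Ocln, which encodes occludin, the implied levels were 71.1 in ethanol and 57.8 in tamoxifen, and the interval ran from 61.4% to 108% of ethanol. The tricellular junction gene Marveld2 (tricellulin) had 25.6 and 29.6, its relative Marveld3 7.83 and 8.97, and the ZO-3 gene Tjp3 6.89 and 10.5. At such levels the intervals were wide, from 64.3% to 361% of ethanol for Tjp3.

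Among the 9 polarity genes 1 fell, none rose and 8 were not called at 24 h. The gene that fell was Dlg1, a membrane-associated guanylate kinase of the Scribble complex (chromosome 16 from 31663443 to 31875129, plus strand). Its levels were 2290 in ethanol and 2094 in tamoxifen. The log2 fold of Dlg1 was -0.13 (SE 0.05, adjusted p = 0.0430 in the Wald test) in the authors' deposited table. Its adjusted p was 0.0582 with adjustment over all genes that have a p and 0.0616 with recentred folds, so the call lies at the threshold. The partners of Dlg1 in that complex, Scrib and Llgl2, stood at 98.6% of ethanol (interval 91.3% to 106%) and 99.9% (interval 89.0% to 112%).

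None of the Par complex genes was called at 24 h. Pard3, the scaffold of the complex, had 1803 in ethanol and 1738 in tamoxifen, and the atypical protein kinase C gene Prkci had 2450 and 2316. The kinase gene Prkcz, its paralog, had 70.8 and 67.3, with an interval of 75.6% to 120% of ethanol. Pard6b, the adaptor between Cdc42 and the kinase, had a log2 fold of 0.23 (SE 0.12, adjusted p = 0.196 in the Wald test) in the authors' deposited table. In the Crumbs complex, the transmembrane gene Crb3 had 31.9 in ethanol and 43.2 in tamoxifen with an interval of 98.2% to 187% of ethanol, and the adaptor gene Mpp5 (PALS1) had 818 and 832. For Mpp5 the interval of 93.4% to 111% left room for small changes only.

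**Figure D2:**
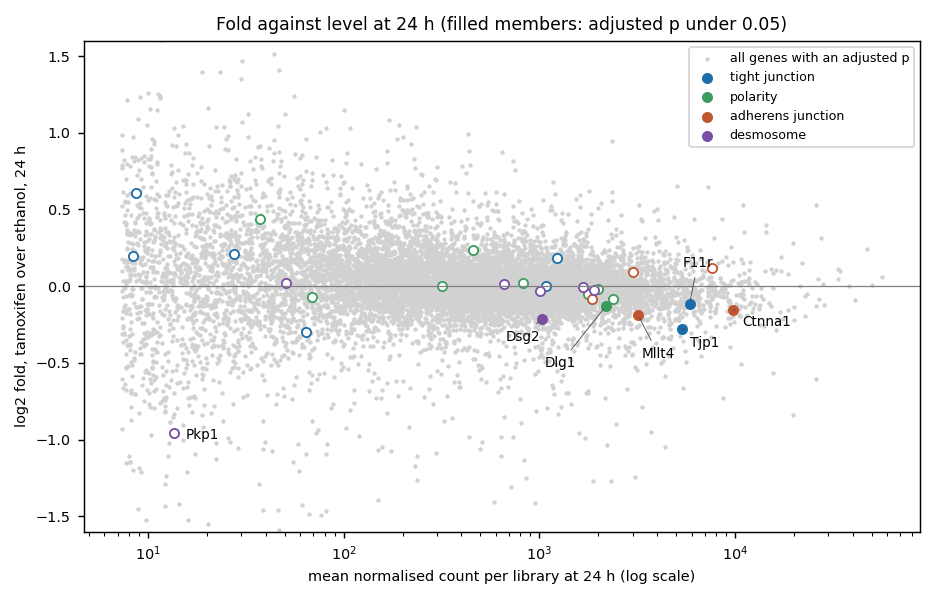
Log2 fold of tamoxifen over ethanol at 24 h (vertical axis, shown from -1.6 to 1.6) against the mean normalised count per library (horizontal axis, log scale) for genes with an adjusted p, with the junction and polarity genes in colour. The filled points, all with a mean above 1000, lie between -0.11 and -0.28, and Pkp1 lies lowest of the members at a mean of 13.7 without being called.

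At the adherens junction 2 of 5 genes fell, none rose and 3 were not called at 24 h. Ctnna1 encodes alpha-catenin, which couples the cadherin-catenin complex to actin and binds vinculin (chromosome 18 from 35118859 to 35254779, plus strand). It had the highest mean of all members, 9761 normalised counts at 24 h, with 10279 in ethanol and 9243 in tamoxifen. The log2 fold of Ctnna1 was -0.15 (SE 0.03, adjusted p = 2.14e-05 in the Wald test) in the authors' deposited table, or 89.9% of ethanol (interval 86.2% to 93.7%). Mllt4 encodes afadin, which links nectins and JAM-A to actin and is named Afdn in the current annotation (chromosome 17 from 13760539 to 13906150, plus strand). Its levels were 3401 in ethanol and 2987 in tamoxifen. The log2 fold of Mllt4 was -0.19 (SE 0.04, adjusted p = 0.000195 in the Wald test) in the authors' deposited table, or 87.8% of ethanol (interval 83.0% to 92.9%).

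The genes of E-cadherin, p120-catenin and vinculin were not called. Cdh1 had 1903 normalised counts in ethanol and 1800 in tamoxifen at 24 h, with an interval of 85.7% to 104% of ethanol. Ctnnd1, which encodes p120-catenin, a stabiliser of cadherin at the membrane, was on the higher side at 108% (interval 101% to 117%, adjusted p = 0.154 in the Wald test of the authors' deposited table). Vcl, the actin-binding protein vinculin, stood at 107% (interval 101% to 112%, adjusted p = 0.104 in the Wald test of the authors' deposited table). Of the annotated exon bases of Ctnnd1, 61.2% also lie in a same-strand gene, Gm28635, so reads could be shared whether or not a library marks strand. Of those of Vcl, 25.5% lie opposite exons of Ap3m1, and the library kit does not mark strand, so reads could be shared. The beta-catenin gene Ctnnb1, which is not a member, had 38067 in ethanol and 38031 in tamoxifen, an interval of 95.8% to 104%.

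In the desmosome 1 gene fell, and 7 genes with a fold were not called. Dsg2, the desmosomal cadherin of simple epithelia (chromosome 18 from 20558074 to 20604521, plus strand), had 1103 in ethanol and 951 in tamoxifen at 24 h. The log2 fold of Dsg2 was -0.21 (SE 0.07, adjusted p = 0.0206 in the Wald test) in the authors' deposited table, or 86.2% of ethanol with an interval of 78.6% to 94.7%. Its cadherin partner Dsc2 had 50.5 and 51.2, and an interval of 77.0% to 134%. The main genes of the desmosomal plaque were not called. The plakoglobin gene Jup had 1672 and 1668 (interval 91.5% to 109% of ethanol), the desmoplakin gene Dsp 1910 and 1876 (92.4% to 104%) and the plakophilin gene Pkp2 657 and 663 (91.3% to 112%).

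Among the minor desmosomal genes, Pkp1 had the deepest fold of all members without being called. Pkp1, a plakophilin known mainly from stratified epithelia, had 18.1 in ethanol and 9.28 in tamoxifen at 24 h, and its log2 fold was -0.96 (SE 0.41, adjusted p = 0.107 in the Wald test) in the authors' deposited table. At 12 h Pkp1 had 31.9 and 20.9. The plakin genes Ppl (periplakin) and Evpl (envoplakin) differed in level, with means of 1014 and 6.73 normalised counts at 24 h. Ppl stood at 97.8% of ethanol (interval 85.9% to 112%), and Evpl had no adjusted p in the authors' deposited table at 24 h. Pkp3 is listed at 0 at both times; a count of 0 allows a mean of up to 0.449 at 12 h and 0.401 at 24 h, which is 3 reads over all libraries and covers counting error only. Of the plakophilin genes among the members, Pkp2 alone had a mean above 100.

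At 12 h none of the 30 members with a fold was called, in either direction, in the authors' deposited table, and none had an unadjusted p under 0.05. Of all genes 0.728% were called lower and 0.215% higher at 12 h, and 4.9% of those with a p had an unadjusted p under 0.05. Folds at 12 h were less precise, with a median SE of 0.17 over the members against 0.07 at 24 h. The intervals of 27 members at 12 h excluded a 2-fold change either way, and those of 20 members excluded a 1.5-fold change. At 24 h these numbers were 26 and 23. Members outside the 2-fold limit at 12 h were Marveld3, Pkp1 and Evpl, all with a mean under 50.

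The genes that fell at 24 h had folds at 12 h of either sign with intervals that included 0. Tjp1 had 3169 normalised counts in ethanol and 2872 in tamoxifen at 12 h, and F11r had 5369 and 4818. Ctnna1 had 9902 and 9277, Mllt4 2551 and 2456, and Dlg1 1783 and 1709. Dsg2 was the one on the other side of 0, with 885 in ethanol and 974 in tamoxifen. The log2 fold at 24 h minus that at 12 h was -0.14 (SE 0.19) for Tjp1, 0.04 (SE 0.22) for F11r, -0.06 (SE 0.13) for Ctnna1, -0.13 (SE 0.13) for Mllt4 and -0.07 (SE 0.13) for Dlg1. In a test of the difference of folds over its standard error, with Benjamini-Hochberg adjustment over all genes with a p at both times, 0 of 30 members differed between the times, against 0.0134% of all genes. Dsg2 was the 1 member with an unadjusted p under 0.05, at a difference of -0.35 (SE 0.18, unadjusted p = 0.0461 in the same test across all genes), a limit that 1.64% of all genes passed.

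Levels of different genes were compared per kb of annotated exon. At 24 h F11r was highest with 2198 normalised counts per kb, followed by Ctnna1 with 1519, Ctnnd1 with 1039 and Tjp1 with 688. Cdh1 had 405 per kb at both times. Prkci (429), Vcl (368), Mllt4 (312), Scrib (307) and Jup (260) came next to it per kb at 24 h, and without a spread over libraries neighbours in this order cannot be told apart. Ocln had 15.3 per kb at 24 h, Prkcz 10.9, Dsc2 9.63, Marveld2 8.15, Pkp1 2.72, Marveld3 2.56, Tjp3 2.34 and Evpl 1.05. So the paralogs Tjp1 and Tjp3, Prkci and Prkcz, and Pkp2 (123) and Pkp1 were far apart in level. With the longest transcript in place of all exons as length, Pard3 had 304 per kb in place of 122 at 24 h and Ctnna1 2615, which then exceeded F11r at 2325.

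RNA of the N-cadherin gene was found beside that of the E-cadherin gene in these bulk libraries. Cdh2, which is not a member and encodes the cadherin typical of mesenchymal and neural cells and of hepatocytes, had 215 normalised counts per kb at 12 h and 284 at 24 h, against 405 at both times for Cdh1. Per kb of the longest transcript, the order at 24 h was the reverse, with 473 for Cdh2 and 418 for Cdh1. Cdh2 stood at 101% of ethanol at 24 h with an interval of 95.6% to 107%. Neither cadherin was called at either time.

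**Figure D3:**
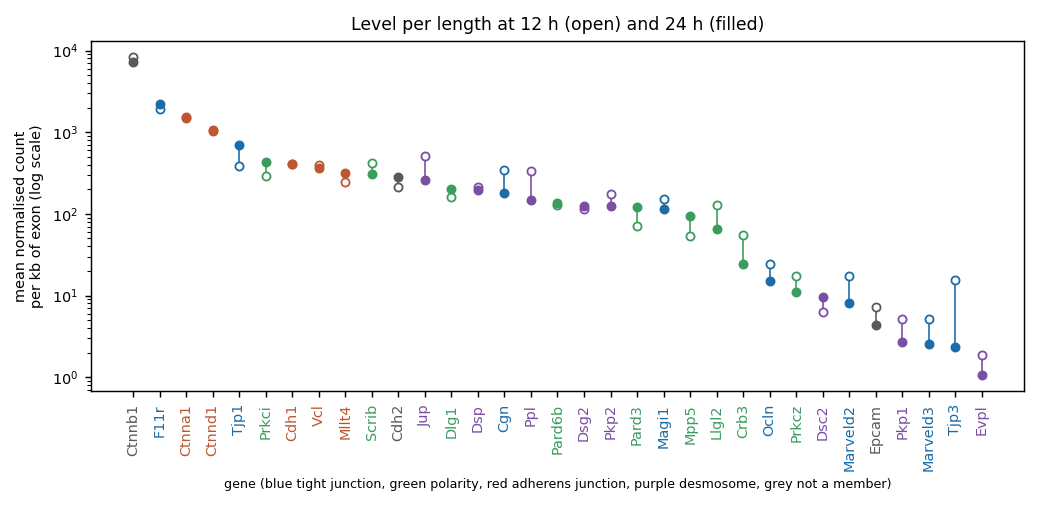
Mean normalised count per kb of exon (log scale) for the junction and polarity genes and, in grey, for Ctnnb1, Cdh2 and Epcam, with an open point at 12 h and a filled point at 24 h. F11r, Ctnna1 and Ctnnd1 lead the members at both times, and Tjp3 shows the longest drop, from 15.3 to 2.34 per kb.

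The mean level of several members at 24 h was not that at 12 h. The times come from separate tables that were normalised separately and have no value per library, so each ratio of shares of all counts is given with no test. Tjp1 was 2.10 times as abundant at 24 h as at 12 h, Mpp5 2.09 times and Pard3 2.01 times, and 7.78% of all genes with a mean of at least 50 at either time had a ratio of at least 2. Tjp3 was at 0.180 of its 12 h level, and was the 1 member of 27 above that mean with a drop of at least 2-fold, which 10.6% of all genes showed. Crb3 (0.509), Ppl (0.513), Marveld2 (0.550), Jup (0.590), Llgl2 (0.595) and Cgn (0.608) came next. The median ratio was 1.10 over these members and 0.947 over all genes.

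Other genes of the same complexes were examined from lists of tight junction, polarity, adherens junction, desmosome and gap junction genes. Of 88 such genes, 65 had an adjusted p at 24 h, and the authors' deposited table calls 10 of them lower and 7 higher. Over all genes with an adjusted p, 6.52% were called lower and 5.9% higher at 24 h. Among all genes with a mean of at least 1000, as 33 of the 88 had, these shares were 12.5% and 7.11%. The counts per list below stand beside the same shares. With adjustment over all genes that have a p, the rises numbered 4. At 12 h the authors' deposited table calls 2 of 70 lower and 0 higher, against 0.728% and 0.215% of all genes. At an unadjusted p under 0.05, 5 were lower and 2 higher at 12 h, a limit that 4.9% of all genes passed. The median log2 fold of these lists was 0.03 at both times.

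Among the other tight junction genes 5 fell and 2 rose of 18 at 24 h. The fall of Jam2, which encodes the adhesion molecule JAM-B, was called at both times. Its log2 fold was -1.33 at 12 h (SE 0.26, adjusted p = 0.000121) and -1.21 at 24 h (SE 0.24, adjusted p = 1.81e-05 in the Wald test) in the authors' deposited table, and its levels at 24 h were 83.0 in ethanol and 35.9 in tamoxifen. Ildr2, of the angulin family of tricellular junction proteins, went from 854 to 472 at 24 h, with a log2 fold of -0.85 (SE 0.08, adjusted p = 7.94e-22 in the Wald test) in the authors' deposited table. The cingulin paralog Cgnl1 fell to 79.5% of ethanol (interval 75.2% to 84.0%), Magi3 to 78.8% (72.9% to 85.2%) and Tjap1 to 80.9% (74.8% to 87.5%) at 24 h. Cxadr, the coxsackievirus and adenovirus receptor of the junction, rose to 112% (105% to 120%). Of the exon bases of Ildr2 11.04% lie opposite exons of other genes, as do 9.46% of those of Cxadr. Cgn and Magi1, the paralogs of Cgnl1 and Magi3, were not called, and the differences between paralogs were not tested.

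Other adherens junction genes counted 4 falls and 2 rises of 22 at 24 h. Lmo7, an afadin-binding LIM domain protein, went from 2135 in ethanol to 1318 in tamoxifen at 24 h, and was also called at 12 h, with a log2 fold of -0.52 (SE 0.14, adjusted p = 0.0196 in the Wald test) in the authors' deposited table. Cdh6, a type II cadherin known from kidney epithelium, fell to 68.5% of ethanol (interval 64.3% to 73.0%). Lima1 (EPLIN), which links alpha-catenin to actin, fell to 72.5% (67.0% to 78.5%) and the LIM protein gene Ajuba to 75.6% (70.0% to 81.7%). Shroom3, an actin-binding protein of apical constriction, rose to 175% (147% to 208%), and 24.9% of its exon bases lie opposite exons of other genes. Zyx (zyxin) rose to 119% (108% to 131%).

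The other polarity genes counted 0 falls and 3 rises of 18 at 24 h in the authors' deposited table. These were Frmd4a at 117% of ethanol (interval 106% to 129%), Epb4.1l5 at 119% (105% to 135%) and the Par3 paralog Pard3b at 122% (106% to 140%). With adjustment over all genes that have a p, Epb4.1l5 and Pard3b had adjusted p of 0.0579 and 0.0622 and were no longer called. Of 10 other desmosome genes, 7 were listed at 0 at 24 h, among them those of the stratified desmosomal cadherins Dsg1a, Dsg1b, Dsg1c, Dsg3, Dsg4 and Dsc3. Perp, a membrane protein of desmosomes and a p53 target, fell to 87.2% of ethanol (80.0% to 95.1%).

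**Figure D4:**
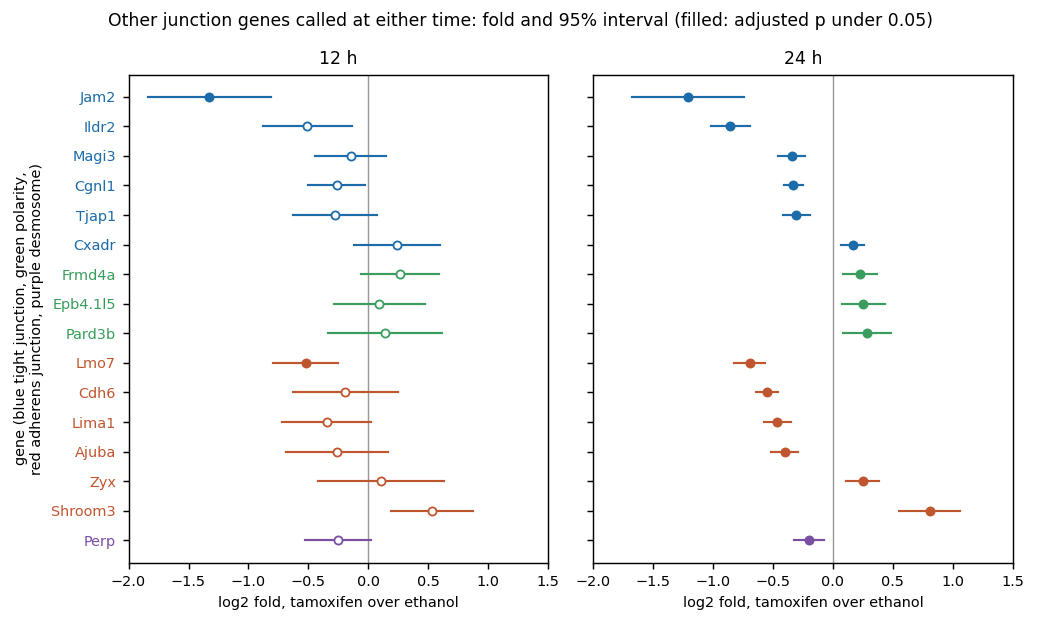
Log2 fold of tamoxifen over ethanol at 12 h (left) and 24 h (right) for the genes of the other junction lists, with up to 6 per list and bars for the 95% interval. Filled points are called; Jam2 and Lmo7 are filled at both times.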

How the data were processed

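Total RNA was made into TruSeq v2 libraries, per the labels' protocols; this kit does not mark strand. The submitters' processing notes name HISAT2, DESeq2 and the build mm10. Their versions, the counting tool and its annotation: not given in the sources used here. Per the file headers, the authors' tables hold the mean count divided by size factors (a signal), the log2 fold and its SE, the Wald score, and p-values before and after adjustment. The adjusted value is blank for genes of low mean. The authors' deposited score equals fold over SE. The direction of the log2 folds was checked per the file headers and values: of 7 lowest means (single reads) at 12 h, 3 had negative and 4 positive folds, the split that 3 ethanol and 4 tamoxifen libraries give for tamoxifen over ethanol. At 24 h the same direction was assumed.

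Implied group levels assume equal library weights. Exon lengths and positions came from GENCODE M21 (GRCm38), where 30 members matched by symbol and Mllt4 as Afdn. Calculations used pandas 2.3.3 and numpy 2.4.6 under Python 3.11.15, with scipy 1.17.1 for p-values and matplotlib 3.10.9 for plots, and the test of differences between times was tested on simulated data. All members, Klf5 and, per other list, up to 6 called genes are named; Ctnnb1, Cdh2, gap junction genes, uncalled regulators and markers were named after their values were seen. The members and lists were chosen with earlier results of these data known. Alternatives were another adjustment, other thresholds, recentred folds and another length. Some genes of these lists are not reported here by name.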

Additional observations from a re-analysis of the deposited data

How the results depend on the processing

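No paired analysis was possible because the tables carry no value per library, and for the same reason no library could be left out. No member was called at 12 h under any of the alternatives tried. At 24 h the 6 falls numbered 3 at an adjusted p under 0.01, and 1 rise, of Magi1, was called at an adjusted p under 0.1. The falls numbered 5 with adjustment over all genes and with recentred folds, without Dlg1. Recentring by the median of genes with a mean of at least 100 moved folds by less than 0.01, and 3 folds near 0 changed sign: Prkcz at 12 h (0.00021), Llgl2 at 24 h (0.0057) and Jup at 24 h (0.0037). Of the other junction genes, 7 rises at 24 h numbered 4 with adjustment over all genes and 2 at an adjusted p under 0.01, and 2 falls at 12 h numbered 1 at that threshold; these alternatives were chosen after seeing the data. The causes were not tested. With the longest transcript as length, 24 of 30 levels per kb at 12 h and 23 at 24 h moved beyond counting error. At 24 h, no member with a mean under 50 had an interval that excluded a 1.5-fold change in both directions.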

Other observations

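Regulators known to act on junction genes showed an uneven pattern of levels. Of 17 such genes, the epithelial factors Grhl2, Ovol1 and Esrp1 had means of 4.24, 0.290 and 0.418 normalised counts at 12 h, and Ovol2 was listed at 0. The E-cadherin repressor genes Zeb1, Zeb2 and Snai2 had 775, 263 and 257 at 12 h, and 991, 634 and 690 at 24 h, in tables that were normalised separately. Snai2 has no p at 12 h in the authors' deposited table, and none of these 3 genes was called at 24 h. Esrp2, an epithelial splicing regulator, fell to 81.3% of ethanol at 24 h (interval 74.0% to 89.3%, adjusted p = 0.000407 in the authors' deposited table). Elf3, an epithelial ETS factor, was not called, with adjusted p of 0.0966 at 12 h and 0.0757 at 24 h in the authors' deposited table.

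None of the 8 gap junction genes with a fold, of 9 listed, was called at either time in the Wald test of the authors' deposited table, and none had an unadjusted p under 0.05. Per kb of exon, the broadly expressed Gja1 had 89.3 normalised counts at 12 h and the hepatocyte connexin gene Gjb1 85.3. At 24 h these values were 50.9 and 24.8, with no test between the times.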
